A study of Homo sapiens with 4 samples.

Results

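Actin is the protein of the thin filament, and alpha-actinin is the dimeric crosslinker that ties actin filaments together. Muscle cells build their thin filaments from sarcomeric actins and anchor them at the Z-disc through alpha-actinin 2. All cells also carry cytoplasmic beta- and gamma-actin, which are crosslinked by alpha-actinins 1 and 4 at stress fibers, adhesions and the cell cortex. In the heart, skeletal alpha-actin and cardiac alpha-actin are coexpressed, and their relative amount shifts with development and with load. The 7 genes described here are the sarcomeric actins ACTA1 and ACTC1, the cytoplasmic actins ACTB and ACTG1, the sarcomeric alpha-actinin ACTN2 and the nonmuscle alpha-actinins ACTN1 and ACTN4. They were chosen by gene symbol as members of these families, with earlier results of these data known, and are 7 of the 23615 gene symbols in the deposited table.

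RNA was measured by poly(A)-enriched sequencing of cardiomyocyte cultures on day 14 of differentiation from RUES2, a human embryonic stem cell line. Both groups were induced to mesoderm with activin A at 100 ng/ml and BMP4 at 5 ng/ml (A100/B5), and by the study's methods CHIR-99021, an activator of Wnt/β-catenin signalling, was given with BMP4. ECsXAV are cells that received VEGF medium on day 2 (VEGF at 200 ng/ml, bFGF and further BMP4) to become endothelial cells and then, from day 5, XAV-939 at 2 µM, a tankyrase inhibitor that blocks Wnt/β-catenin signalling and redirects them to the cardiac fate. CPC are cardiomyocytes made from A100/B5 cardiac progenitor cells by the standard protocol, which in some of the study's experiments included XAV-939 at day 3. Each group had 2 biological replicates. The cultures were not sorted, so in these bulk samples fewer cells of a type and less RNA per cell cannot be told apart. The sample names of the groups begin with different codes, which the labels do not explain, and anything else these codes may mark cannot be told apart from the group.

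Levels are given as FPKM, fragments scaled by transcript length and by the library's total of mapped fragments, in the order ECsXAV 1, ECsXAV 2, CPC 1 and CPC 2. FPKM holds no read counts, so the depth of a library is unknown. Ratios of the lowest values between libraries gave a relative depth of 100%, 50.1%, 86.9% and 79.8%, so ECsXAV 2 was the shallowest. Between 12070 and 12240 genes reached 1 FPKM in each library. The cultures were cardiac by their markers. TNNT2, cardiac troponin T, read 2453, 2309, 2696 and 2988 FPKM. The 10 cardiomyocyte markers summed to 14001, 13599, 12432 and 13090 FPKM, higher in both ECsXAV libraries. Most of that sum was MYL7, at 8786, 8535, 6701 and 7142 FPKM, so the sum does not give the direction of the other markers. On the log2 scale 4 of the 10 were higher in CPC and 6 were lower. The criterion used below was passed by 2 of them, in opposite directions. MYH6 read 855, 857, 2070 and 1901 FPKM and was higher in CPC. MYH7 read 1011, 931, 147 and 194 FPKM and was lower in CPC. Of the skeletal muscle markers, MYF5, MYF6 and PAX7 were listed at 0 in all 4 libraries, and MYOD1 was listed at 0 in 3 of them and at 0.0353 in CPC 2. MYOG was low but above 0 in all 4, at 0.238, 0.203, 0.430 and 0.128 FPKM, and so was MYH3, at 0.263, 0.324, 0.392 and 0.369 FPKM. Of the 4 tested skeletal markers 1 passed the criterion used below, STAC3, which was higher in CPC. The 6 endothelial markers summed to 11.89, 10.27, 12.43 and 10.04 FPKM, so the groups overlapped. Most of that was KDR, the VEGF receptor, at 9.80, 7.06, 10.8 and 8.69 FPKM. CDH5 read 1.19, 1.49, 0.875 and 0.649 FPKM and TEK 0.446, 0.831, 0.263 and 0.124 FPKM. Both were higher in both ECsXAV libraries, as was VWF, which was at most 0.0209 FPKM. The groups overlapped in KDR, PECAM1 and TIE1. CDH5 did not pass the criterion used below, and TEK and VWF were too low to be tested. The marker sums of 4 other lists were higher in ECsXAV, and the criterion used below was passed in that direction by 6 of 7 tested proliferation markers, 3 of 6 fibroblast markers, 1 of 4 smooth muscle markers and 2 of 3 endoderm markers. Proliferation markers summed to 70.6, 59.6, 23.3 and 24.6 FPKM, fibroblast markers to 191, 226, 107 and 105 FPKM, smooth muscle markers to 235, 229, 98.4 and 120 FPKM, and endoderm markers to 36.1, 29.9, 16.1 and 18.1 FPKM. Some members of these lists went the other way. The fibroblast markers PDGFRA and POSTN had log2 differences (CPC minus ECsXAV) of 0.19 and 0.15, and the smooth muscle marker LMOD1 had 0.64. None of these passed the criterion. MYH11, too low to be tested, read 0.0844, 0.154, 0.351 and 0.433 FPKM. The part of these 4 lists in the results below was not tested.

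The actin genes are close copies of each other, which bears on how short reads can be assigned. Over the coding sequence ACTA1 and ACTC1 were identical at 85.7% of aligned bases, ACTB and ACTG1 at 91.3%, and ACTC1 and ACTB at 84.5%. The alpha-actinins were more distant, with 79.0% for ACTN1 and ACTN4, 74.9% for ACTN1 and ACTN2, and 75.1% for ACTN2 and ACTN3. The first 60 coding bases of ACTA1 and ACTC1 are shown because the ratio of these genes is read from such differences. Capitals mark the 8 bases that differ.
ACTA1: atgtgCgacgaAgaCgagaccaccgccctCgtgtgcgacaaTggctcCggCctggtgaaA
ACTC1: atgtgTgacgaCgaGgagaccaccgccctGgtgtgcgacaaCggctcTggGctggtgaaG
Runs of 50 identical bases were nevertheless rare between loci. Of the 50-base windows of the ACTC1 mRNA, 0.750% also occurred in transcripts of genes elsewhere in the genome, and for ACTA1 the share was 1.87%. It was highest for ACTB, at 10.9% (192 of 1763 windows, shared with 24 genes), followed by 4.22% for ACTG1 and 2.57% for ACTN4. ACTN1 had 0.926%, and for ACTN2 it was 0 of 4823 windows. ACTB has 12 annotated pseudogenes named for it, ACTG1 has 21 and ACTN4 has 2. How reads that map to several places were treated is not stated for the FPKM, so by this measure the levels of ACTB and ACTG1 are the least certain of the 7.

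The promoters of ACTA1, ACTC1 and ACTG1 carry the same element, the CArG box, and they are shown because actin genes are textbook targets of serum response factor (SRF), which binds it. The sequences are the 250 bases before the RefSeq transcription start on GRCh38.p14, read on the minus strand. Capitals mark the CArG box, searched as CC, then 6 bases of A or T, then GG, a pattern that reads alike on both strands. It begins 97 bases before the start in ACTA1 (chr1:229434095-229434344), 109 bases before it in ACTC1 (chr15:34795550-34795799) and 94 bases before it in ACTG1 (chr17:81512800-81513049).
ACTA1: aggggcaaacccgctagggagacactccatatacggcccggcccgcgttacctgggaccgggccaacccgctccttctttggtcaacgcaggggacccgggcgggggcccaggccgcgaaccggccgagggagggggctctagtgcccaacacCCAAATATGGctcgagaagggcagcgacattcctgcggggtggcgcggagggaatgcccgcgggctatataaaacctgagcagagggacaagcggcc
ACTC1: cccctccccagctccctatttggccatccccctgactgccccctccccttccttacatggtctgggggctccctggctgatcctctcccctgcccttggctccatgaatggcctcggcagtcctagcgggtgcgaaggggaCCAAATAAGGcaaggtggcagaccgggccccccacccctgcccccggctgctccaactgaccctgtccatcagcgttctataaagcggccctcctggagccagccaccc
ACTG1: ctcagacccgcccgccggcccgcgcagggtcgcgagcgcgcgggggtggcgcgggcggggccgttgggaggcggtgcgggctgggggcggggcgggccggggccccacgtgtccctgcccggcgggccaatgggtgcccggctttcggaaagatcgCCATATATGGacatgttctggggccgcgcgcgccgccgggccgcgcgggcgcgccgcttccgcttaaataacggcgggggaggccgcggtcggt
The box was found in 407 of 35116 promoters of this length (1.16%) and in 4 of 12 promoters of the members, the fourth being an alternative ACTN1 start. The letters TATAAA, searched on both strands, were in 10.7% of all promoters and in 3 of the 12, a promoter each of ACTA1, ACTC1 and ACTN1. The table held 6 of the 7 members, without ACTB. A match is a description of the letters and not a measured binding site.

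None of the 7 genes passed the criterion of a limma adjusted p under 0.05 with a fold over 2 between CPC and ECsXAV, which 266 of the 12398 tested genes passed (2.15%). Of all tested genes, 0.71% passed with a higher level in CPC and 1.44% with a higher level in ECsXAV. Without the condition on the fold, 2.89% of all tested genes and again 0 of the 7 had an adjusted p under 0.05. The cardiac actin ACTC1 was the most abundant of them, at 1108 to 1259 FPKM, and ACTN2 was the leading alpha-actinin at 345 to 447 FPKM. All 4 actins of the 7 had positive log2 differences (CPC minus ECsXAV, on log2(FPKM + 1)) and all 3 alpha-actinins of the 7 had negative ones. Of all tested genes, 6106 of 12398 had positive differences. The signs of ACTA1 and ACTG1 turned in alternatives given below, and the alpha-actinin ACTN3, outside the 7, had a positive difference of 1.48. The members' median log2 difference was 0.10, beside -0.0045 for all tested genes. In 6 of the 7 genes the values of the groups did not overlap, against 49.8% of all tested genes. Of these 6, the 3 actins ACTC1, ACTB and ACTG1 were higher in CPC (24.4% of all tested genes) and the 3 alpha-actinins were higher in ECsXAV (25.4%). The differences were small. The 95% interval of the difference lay within 2-fold in either direction for 6 of the 7 genes, against 87.7% of all tested genes, and the exception was ACTB.

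**Figure D1:**
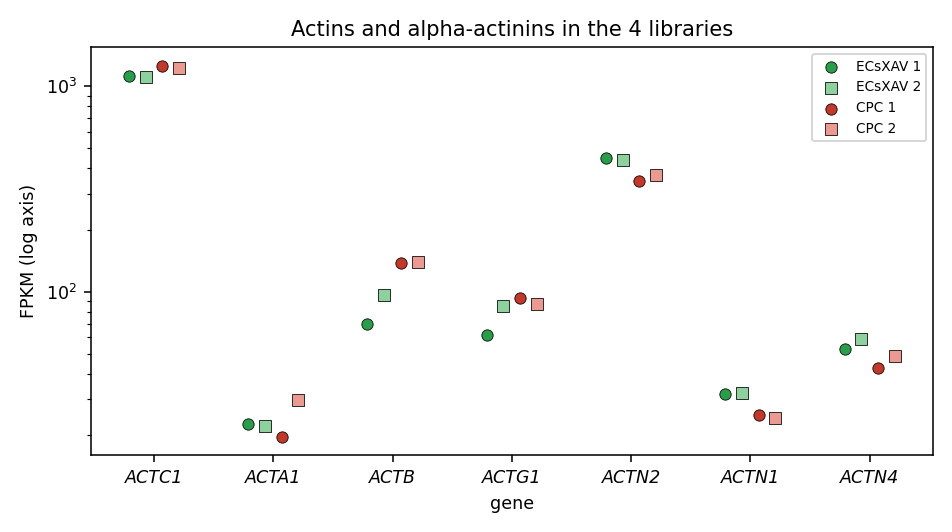
FPKM of the 7 genes (log axis) in the 2 ECsXAV and 2 CPC libraries, each point a library. ACTC1 lies between 1108 and 1259 FPKM, ACTN2 between 345 and 447 FPKM and ACTA1 between 19.7 and 29.6 FPKM, and the groups overlap in ACTA1.

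ACTC1 (chr15:35082308-35087790, minus strand, GRCh37) encodes the alpha-actin of the heart's thin filaments, in 7 exons of an mRNA of 1382 bases. It read 1120, 1108, 1259 and 1231 FPKM and ranked 15, 15, 10 and 12 among all gene symbols. Both CPC libraries were above both ECsXAV libraries, with means of 1114 ± 8.55 in ECsXAV and 1245 ± 19.2 in CPC (SD, n = 2 each). The log2 difference was 0.16 with a standard error of 0.15 and a 95% interval of -0.22 to 0.54 (limma, adjusted p = 0.629). ACTC1 was therefore among the most abundant transcripts of either group, and a difference between them was not resolved.

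ACTA1 (chr1:229566112-229569851, minus strand, 7 exons, mRNA of 1491 bases) encodes the alpha-actin that predominates in adult skeletal muscle. It read 22.8, 22.4, 19.7 and 29.6 FPKM. The ECsXAV libraries lay close together and between the CPC libraries, so the groups overlapped, with means of 22.6 ± 0.286 in ECsXAV and 24.7 ± 7.005 in CPC (SD, n = 2 each). Its rank was between 1982 and 2988 in the 4 libraries. The log2 difference was 0.10 with a standard error of 0.21 and an interval of -0.44 to 0.63 (limma, adjusted p = 0.855). Without CPC 2, the library with the highest value, it was -0.19, and without CPC 1 it was 0.38.

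The skeletal actin was a small fraction of the cardiac actin. The ratio of ACTA1 to ACTC1 was 2.03% and 2.02% in ECsXAV and 1.57% and 2.41% in CPC. The CPC libraries stood on either side of the ECsXAV pair, and the means were 2.02% ± 0.0102 and 1.99% ± 0.593 (SD, n = 2 each). The log2 difference of the ratio was -0.060 (exact two-sided permutation test, p = 1.0). With 2 libraries against 2, no exact two-sided permutation p can fall under 0.333. Without CPC 1 the log2 difference was 0.25, so its sign rested on that library. CKM, the muscle creatine kinase shared by skeletal and cardiac muscle, took most of the summed skeletal marker list, at 375, 440, 309 and 405 FPKM.

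ACTB (chr7:5566040-5603533, minus strand, 6 exons, mRNA of 1812 bases) encodes cytoplasmic beta-actin, which is often used as a reference gene. It read 69.9, 96.7, 138 and 139 FPKM. Both CPC libraries were higher than both ECsXAV libraries and were nearly equal, while the ECsXAV libraries differed 1.38-fold between themselves. The means were 83.3 ± 18.9 in ECsXAV and 138.5 ± 0.706 in CPC (SD, n = 2 each). The log2 difference of 0.75 was the largest of the 7 genes in size, with a standard error of 0.18 and an interval of 0.28 to 1.21, which is 1.21-fold to 2.32-fold. Its limma p was 0.00976 before adjustment and 0.123 after. An unadjusted p under 0.05 was reached by 18.2% of all tested genes and by 2 of the 7, ACTB and ACTN1. Without ECsXAV 1 the log2 difference of ACTB was 0.51, and without ECsXAV 2 it was 0.98. When microRNA, small nucleolar, small nuclear and small Cajal body RNA genes were left out of the fit, its adjusted p was 0.0296 (limma). The fold was still under 2. In that fit 968 of 12094 tested genes had an adjusted p under 0.05, against 358 of 12398 with those genes kept.

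ACTG1 (chr17:79476439-79490873, minus strand, 6 exons, mRNA of 1919 bases) encodes cytoplasmic gamma-actin. It read 62.0, 85.8, 93.4 and 87.3 FPKM. ECsXAV 1 was the low library and ECsXAV 2 lay just below the CPC pair, so the groups did not overlap. The means were 73.9 ± 16.9 in ECsXAV and 90.3 ± 4.27 in CPC (SD, n = 2 each), and the log2 difference was 0.30 with a standard error of 0.18 and an interval of -0.17 to 0.78 (limma, adjusted p = 0.469). It was 0.072 without ECsXAV 1 and 0.54 without ECsXAV 2. ECsXAV 2 exceeded ECsXAV 1 by a factor of 1.39, close to the factor for ACTB. In the other members this factor was between 0.982 and 1.11.

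**Figure D2:**
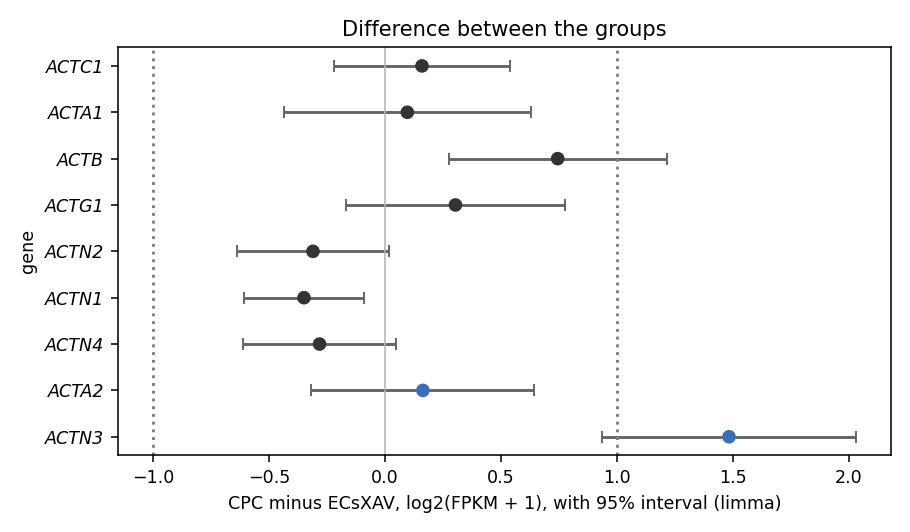
Log2 difference (CPC minus ECsXAV, log2(FPKM + 1)) of each gene with its 95% interval from limma, for the 7 genes (black) and for ACTA2 and ACTN3 (blue), with dotted lines at 2-fold. Positive values are higher in CPC, ACTB at 0.75 and ACTN1 at -0.35 have intervals clear of 0 among the 7 genes, and none of the 7 passes the criterion.

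The FPKM of ACTG1 was divided between its transcripts in another way in CPC than in ECsXAV. The table splits the gene into 3 RefSeq transcripts. The main coding transcript, NM_001614, read 61.6, 82.8, 62.9 and 70.4 FPKM. The second coding transcript, NM_001199954, read 0.379, 3.04, 3.07 and 1.42 FPKM. The noncoding transcript NR_037688 read 0.00536, 0.0325, 27.4 and 15.5 FPKM. It was near 0 in both ECsXAV libraries and took 29.3% and 17.8% of the gene's FPKM in the CPC libraries. The coding transcripts alone summed to 62.0, 85.8, 66.0 and 71.8 FPKM. On that sum the groups overlapped, with 73.9 ± 16.9 in ECsXAV and 68.9 ± 4.11 in CPC (SD, n = 2 each). The log2 difference, refitted after the values had been seen, was -0.082 with an interval of -0.56 to 0.39 (limma, adjusted p = 0.863), so the direction for ACTG1 turned with the transcripts counted. Transcripts of a gene overlap, and how well these reads separate them was not tested.

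**Figure D3:**
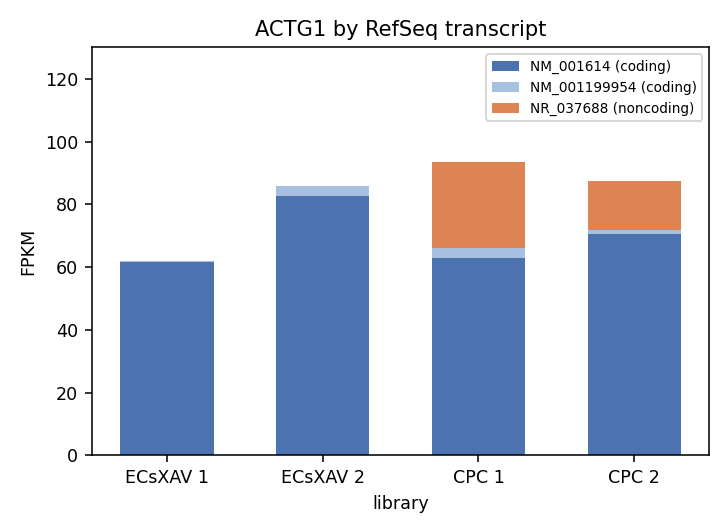
FPKM of the 3 ACTG1 transcripts stacked for each library (linear axis). The noncoding transcript is 27.4 and 15.5 FPKM in CPC and at most 0.0325 FPKM in ECsXAV, and the coding transcripts sum to between 62.0 and 85.8 FPKM in all 4 libraries.

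The balance of the cytoplasmic actins differed more between groups than within them. The ratio of ACTG1 to ACTB was 0.886 and 0.888 in ECsXAV and 0.677 and 0.628 in CPC. The ECsXAV pair was nearly identical although each gene differed between its libraries, and the CPC pair was lower, with means of 0.887 ± 0.00119 and 0.652 ± 0.0341 (SD, n = 2 each). The log2 difference was -0.44 (exact two-sided permutation test, p = 0.333, the smallest possible). With the coding transcripts of ACTG1 alone it was -0.84.

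The summed sarcomeric actins exceeded the summed cytoplasmic actins in all 4 libraries. The ratio of ACTA1 plus ACTC1 to ACTB plus ACTG1 was 8.67, 6.20, 5.52 and 5.57. ECsXAV 1 stood highest and ECsXAV 2 lay nearer to the CPC pair than to ECsXAV 1. The means were 7.43 ± 1.75 in ECsXAV and 5.55 ± 0.0331 in CPC (SD, n = 2 each), a log2 difference of -0.40 (exact two-sided permutation test, p = 0.333). The difference was -0.16 without ECsXAV 1, -0.64 without ECsXAV 2 and -0.26 with the coding transcripts of ACTG1 alone.

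As a share of the summed FPKM of 6 actin genes (the 4 members with ACTA2 and ACTG2), ACTC1 held 82.6%, 80.8%, 79.4% and 78.6%. The CPC shares were the lower, while the sum itself was higher in CPC, at 1584 and 1566 against 1356 and 1371 FPKM. ACTB held 5.16%, 7.05%, 8.71% and 8.88%, higher in both CPC libraries. The groups overlapped in the shares of ACTG1 (5.41% ± 1.20 and 5.74% ± 0.224), ACTA1 (1.65% ± 0.0341 and 1.57% ± 0.457) and ACTA2 (5.06% ± 1.23 and 4.85% ± 0.230; SD, n = 2 each, ECsXAV first).

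ACTN2 (chr1:236827441-236927931, plus strand, 21 exons, mRNA of 4872 bases) encodes the alpha-actinin of the cardiac Z-disc, where it crosslinks thin filaments of adjoining sarcomeres. It read 447, 439, 345 and 370 FPKM. Both CPC libraries were lower than both ECsXAV libraries, with means of 443 ± 5.64 in ECsXAV and 357 ± 17.3 in CPC (SD, n = 2 each). The log2 difference was -0.31 with a standard error of 0.13 and an interval of -0.64 to 0.02 (limma, adjusted p = 0.295). Its rank among all symbols was 66, 76, 69 and 86. No 50-base window of its mRNA was shared with another locus and no other annotated gene overlapped it, which made it the least ambiguous of the 7 in read assignment.

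ACTN1 (chr14:69340845-69446157, minus strand, 22 exons, mRNA of 3722 bases) encodes a nonmuscle alpha-actinin of stress fibers and focal adhesions. It read 31.7, 32.1, 25.3 and 24.4 FPKM. Replicates lay within 1 FPKM of each other in both groups, and CPC was lower, with means of 31.9 ± 0.332 in ECsXAV and 24.8 ± 0.649 in CPC (SD, n = 2 each). The log2 difference was -0.35 with a standard error of 0.10 and an interval of -0.61 to -0.09 (limma, adjusted p = 0.165). Of its transcripts, NM_001130005 held 83.2%, 89.1%, 87.6% and 93.3% of the gene's FPKM. NM_001102 held 16.8%, 10.9%, 12.4% and 6.63%, so the groups overlapped in the split between transcripts.

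ACTN4 (chr19:39138289-39222229, plus strand, 21 exons, mRNA of 4990 bases) encodes the other nonmuscle alpha-actinin, which is found in the cytoplasm and nucleus of motile cells. It read 52.8, 58.7, 42.5 and 48.9 FPKM. CPC was lower without overlap, with means of 55.7 ± 4.18 in ECsXAV and 45.7 ± 4.53 in CPC (SD, n = 2 each). The gap between the nearest libraries of the groups was smaller than the gap within either group. The log2 difference was -0.28 with a standard error of 0.13 and an interval of -0.61 to 0.05 (limma, adjusted p = 0.339). CAPN12 overlaps ACTN4 on the opposite strand, and whether strand was used is not stated for the FPKM.

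The ratio of the sarcomeric to the nonmuscle alpha-actinins overlapped between groups. ACTN2 over the sum of ACTN1 and ACTN4 was 5.29, 4.83, 5.09 and 5.04. Both CPC libraries lay between the ECsXAV libraries, with means of 5.06 ± 0.325 and 5.07 ± 0.0330 (SD, n = 2 each) and a log2 difference of 0.0020 (exact two-sided permutation test, p = 1.0).

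**Figure D4:**
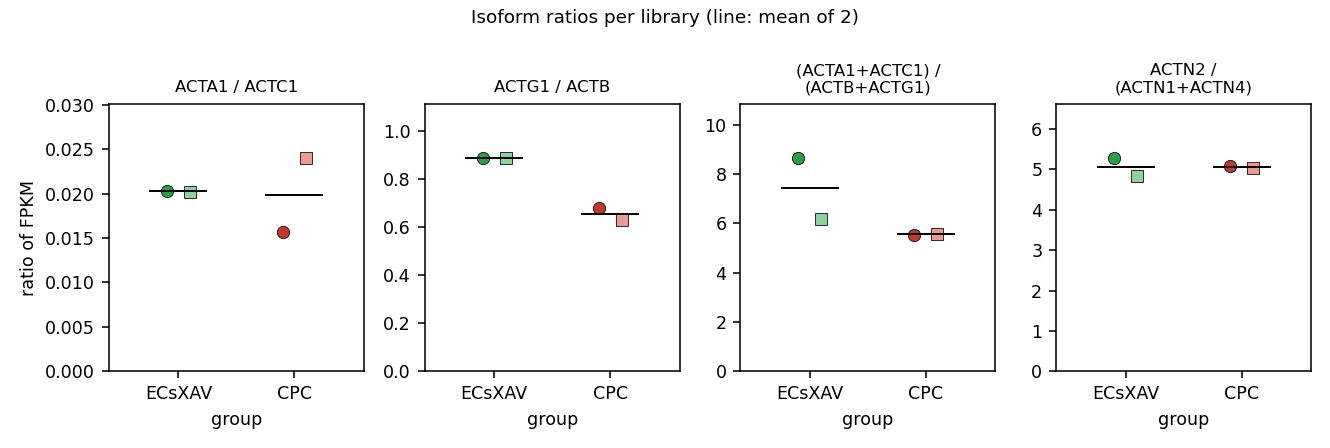
The 4 ratios among actins and alpha-actinins in each library (linear axes of FPKM ratio, circles replicate 1, squares replicate 2, lines the mean of 2). ACTG1/ACTB is 0.886 and 0.888 in ECsXAV and 0.677 and 0.628 in CPC, while ACTA1/ACTC1 and ACTN2/(ACTN1+ACTN4) overlap between groups.

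Of the 4 other genes of these families, ACTN3, the alpha-actinin of fast skeletal fibers (chr11:66313866-66330805, plus strand), passed the criterion. It read 37.2, 55.9, 129.6 and 129.3 FPKM. Both CPC libraries were higher and almost equal, and ECsXAV 2 was above ECsXAV 1, the order also seen in ACTB and ACTG1. The means were 46.6 ± 13.3 in ECsXAV and 129.4 ± 0.231 in CPC (SD, n = 2 each), with a log2 difference of 1.48, a standard error of 0.21 and an interval of 0.94 to 2.03 (limma, adjusted p = 0.0440). The adjusted p of ACTN3 was 0.0983 without ECsXAV 1, 0.154 without CPC 1, 0.161 without CPC 2 and 0.0958 with no filter on low genes, so the call was lost in each of these fits. In the summed FPKM of the 4 alpha-actinin genes, ACTN3 held 6.53%, 9.55%, 23.9% and 22.6%, and ACTN2 held 78.6%, 74.9%, 63.6% and 64.6%. The groups did not overlap in either share. Of the 4 tested skeletal muscle markers STAC3, which couples excitation to contraction in skeletal muscle, also rose in CPC, at 1.91, 2.19, 23.6 and 17.7 FPKM (log2 difference 2.81). The other 3 did not pass, and their log2 differences were -1.002 for TNNT3 (3.76, 3.89, 0.988 and 1.92 FPKM), -0.20 for CKM and 0.34 for TNNI2. The part of these markers in the ACTN3 result was not tested. The sum itself overlapped between groups, at 569, 586, 542 and 572 FPKM. ACTN1 held 5.53% ± 0.0588 in ECsXAV and 4.46% ± 0.285 in CPC, and ACTN4 held 9.65% ± 0.521 and 8.19% ± 0.505 (SD, n = 2 each).

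ACTA2, the smooth muscle alpha-actin that is also made in early cardiomyocytes, read 80.5, 57.5, 74.2 and 78.5 FPKM. ECsXAV 2 was the low library and the groups overlapped, with a log2 difference of 0.16 (limma, adjusted p = 0.707). The gut and bladder smooth muscle actin ACTG2 was at most 0.631 FPKM and ACTBL2, an actin-beta-like gene, at most 0.0348 FPKM, so both fell below the filter and were not tested. In FPKM the actin order was ACTC1 above all others in every library, with ACTA1 below ACTB, ACTG1 and ACTA2 in every library. ACTB was above ACTG1 in every library, but ACTA2 changed place: it was above both of them in ECsXAV 1 and below both in ECsXAV 2 and in the CPC libraries.

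The genes that nucleate, cap, sever and crosslink actin filaments were then read from 7 lists of 109 genes, of which 98 were tested. Of these, 6 passed the criterion (6.12%), against 2.15% of all tested genes, and their median log2 difference was -0.076, against -0.0045. The 6 were ACTN3 and the 5 genes that follow. With no filter on low genes 0 of them passed, and of all tested genes only 20 of 18772 passed in that fit. Fewer genes of these lists, and fewer of all tested genes, also passed whichever library was left out. In CPC, 2 of the 6 rose and 4 fell.

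Among the 17 tested Z-disc partners of ACTN2, 1 passed the criterion with a higher and 1 with a lower level in CPC. The median was -0.34, with 6 positive and 11 negative differences. MYOZ1, a myozenin that binds alpha-actinin, read 5.72, 5.61, 17.8 and 17.7 FPKM, higher in both CPC libraries by 1.49 on the log2 scale (limma, adjusted p = 0.0110). PDLIM1, a PDZ and LIM domain protein that binds alpha-actinin, read 125, 120, 42.4 and 52.0 FPKM, with a log2 difference of -1.37 (limma, adjusted p = 0.0237). Neither gene overlapped between groups.

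Among the 20 tested genes of monomer binding and filament turnover, 1 passed. TMSB4X, thymosin beta 4, which sequesters actin monomers, read 7.60, 8.22, 1.82 and 1.46 FPKM, lower in both CPC libraries with a log2 difference of -1.76 and a standard error of 0.14 (limma, adjusted p = 0.0132). How much of its mRNA is shared with other loci was not measured. The list's median was -0.13, with 7 positive and 13 negative differences. Of the 21 tested nonmuscle crosslinkers and adhesion partners, 2 passed the criterion, both with a lower level in CPC. Their list's median was -0.15, with 4 positive and 17 negative differences. TLN2, a talin that links integrins to actin, read 11.5, 9.97, 3.43 and 3.75 FPKM (log2 difference -1.35, limma adjusted p = 0.0195). ANLN, anillin, a crosslinker of the cytokinetic ring, read 9.20, 6.78, 2.86 and 2.40 FPKM (log2 difference -1.30, limma adjusted p = 0.0413). Both were lower in both CPC libraries, as was the summed level of the proliferation markers given above. All 7 of those markers had negative differences, and 6 of them passed the criterion. Whether ANLN moved with the number of dividing cells was not tested.

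In the remaining lists none of the tested genes passed. The 17 genes of filament ends and nucleation had a median of 0.013, and the largest difference was that of LMOD1, a leiomodin that nucleates filaments, at 18.6, 20.2, 31.7 and 30.0 FPKM (log2 difference 0.64, limma adjusted p = 0.0600). LMOD1 is also on the smooth muscle marker list, whose sum was higher in ECsXAV. Of the 4 tested genes there it was the only 1 with a positive difference. The 14 genes of the Arp2/3 complex and its activators, which build branched networks, had a median of -0.016, and the largest difference was that of ARPC5, at 22.4, 24.3, 37.1 and 28.5 FPKM (0.47, limma adjusted p = 0.223). SRF and its cofactors, known regulators of actin genes, had a median of 0.11 over 7 genes. SRF itself read 16.5, 18.9, 26.4 and 27.5 FPKM, higher in both CPC libraries, with a log2 difference of 0.58 that missed the threshold (limma, adjusted p = 0.0837).

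**Figure D5:**
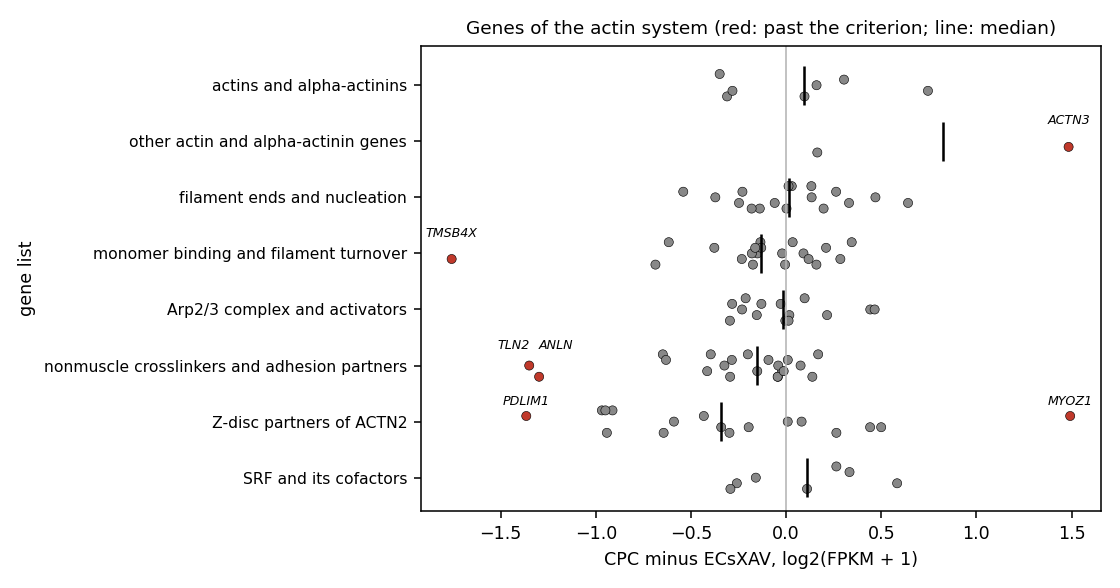
Log2 differences (CPC minus ECsXAV, log2(FPKM + 1)) of each tested gene by list, with red points past the criterion and black lines at the list medians. The 7 actins and alpha-actinins lie between -0.35 and 0.75, none of them red, and the 6 red genes are ACTN3, TMSB4X, TLN2, ANLN, PDLIM1 and MYOZ1.

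The profiles most like those of the sarcomeric actins were found by the Euclidean distance between centred log2(FPKM + 1) values over the 4 libraries, as a description. For ACTC1 the nearest were ZDHHC5 (0.0107), CNOT2 (0.0140), ERC2 (0.0142), H6PD (0.0171) and PLAU (0.0184). For ACTA1 they were RP9 (0.0598), SH3GL1 (0.0603), WDR45B (0.0605), SYN1 (0.0655) and CLK3 (0.0662). None of these is a sarcomere gene.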

How the data were processed

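RNA from 4 unsorted day 14 cultures (2 ECsXAV and 2 CPC) was poly(A)-enriched and sequenced. The authors deposited gene and transcript FPKM made with Cufflinks on hg19. The study's methods name Cufflinks 2.1.1 and the aligner Gsnap, the submitters' processing notes name TopHat 1.3.3, and which aligner made these tables is not settled. The study's methods describe a separate gene count that used strand and left out reads with several alignments, but do not state either setting for the Cufflinks FPKM. FPKM is scaled by each library's total, so a few abundant genes can move all others, and it holds no counts, so the depth, counting intervals and detection floors are unknown. Relative depth was the modal ratio of the lowest FPKM values between libraries.

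The gene table has 699622 rows and 23615 symbols. For symbols with several rows the row with the highest mean was used, and all 7 members have 1 row. Genes with a mean of at least 1 FPKM over the 4 libraries (12398) were transformed to log2(FPKM + 1) and compared by limma (version 3.58.1, R 4.3.3), whose prior followed an intensity trend, and p-values were adjusted over all of them by Benjamini-Hochberg. A gene passed with an adjusted p under 0.05 and a fold over 2. Differences are CPC minus ECsXAV and understate the change of low genes. Ratios were compared by exact two-sided permutation of the 4 libraries, with no adjustment over the 4 ratios since no p could pass. The code was tested on simulated data.

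Locations, exons, 50-base windows and coding identities come from GENCODE 44 mapped to GRCh37 (hg19), and promoters from RefSeq on GRCh38.p14. The genes named in the text are the 7 members, the other actin and alpha-actinin genes, the genes of each list past the criterion or, where none passed, the gene of largest change, the 5 profiles nearest to ACTA1 and ACTC1, and markers beside a result. The members and lists were chosen with earlier results of these data known. Nothing in the labels describes separate cultures beyond the replicate number, while the study's methods call the replicates biological, so p-values measure the spread between these samples. Alternatives were the pseudocount, the filter, quantile and median-of-ratios scaling, no trend, a replicate block, leaving out short RNA genes, and leaving out each library in turn. The other endothelial-derived populations of the study were not analysed here.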

Additional observations from a re-analysis of the deposited data

How the results depend on the processing

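In every alternative run, 0 of the 7 genes passed the criterion. The only limma adjusted p under 0.05 of a member in any of them was that of ACTB without short RNA genes. In that fit 968 of 12094 tested genes were under 0.05, against 358 of 12398 with the short RNA genes kept. Over all alternatives the log2 differences (CPC minus ECsXAV) ranged from 0.51 to 0.98 for ACTB, 0.14 to 0.31 for ACTC1, -0.37 to -0.32 for ACTN1, -0.36 to -0.11 for ACTN2 and -0.38 to -0.18 for ACTN4, so their directions held. With a library left out, ACTA1 (0.10) ranged from -0.19, without CPC 2, to 0.38, and ACTA2 (0.16) from -0.075, without ECsXAV 2, to 0.40. The direction of ACTG1 (0.30) turned on its coding transcripts, at -0.082, an alternative chosen after seeing the data. Leaving out a library in turn gave ACTA1/ACTC1 log2 differences from -0.37 to 0.25, with the positive value without CPC 1, and ACTN2/(ACTN1+ACTN4) from -0.063 to 0.068, where -0.0046 without CPC 1 and -0.0011 with a pseudocount of 1 were also below 0. The genes of the actin lists past the criterion went from 6 to 0 with no filter. Over all tested genes those past it went from 266 of 12398 to 20 of 18772 in the same step. Whichever library was left out, fewer genes of the actin lists and fewer of all tested genes passed. The cause of these losses was not tested.

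The groups share replicate numbers 1 and 2, which with 2 pairs name the samples only. The replicate differences of the groups correlated across 12398 genes with r = 0.035 (Pearson) and 0.356 (Spearman), genes not being independent replicates. With the replicate block, 0 of the 7 genes and 5 of the actin list genes passed, beside 176 of all 12398 tested genes. ACTN3 had a limma adjusted p of 0.0541 in that fit. For the ratios, the mean paired log2 difference equals the difference of the group means by construction, so it is no check (ACTA1/ACTC1 -0.060, ACTG1/ACTB -0.44, sarcomeric to cytoplasmic actin -0.40 and ACTN2/(ACTN1+ACTN4) 0.0020). Pairs 1 and 2 gave -0.38 and 0.25 for ACTA1/ACTC1 and -0.39 and -0.50 for ACTG1/ACTB. They gave -0.65 and -0.15 for sarcomeric to cytoplasmic actin and -0.057 and 0.061 for ACTN2/(ACTN1+ACTN4). With 2 libraries a group and no counts, small differences in these abundant genes could not be resolved.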
